A study of Homo sapiens with 6 samples.

Results

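Fibrillar collagens and mesenchymal markers were followed in Huh7, an established cell line from a human hepatocellular carcinoma, with and without a short hairpin RNA against ABL1, a non-receptor tyrosine kinase. The genes were COL1A1, COL1A2, COL3A1, LUM, PDGFRA and VIM, chosen by symbol with earlier results of these data known. Each had 1 row, so that they made up 6 of 10191 rows in the deposited RNA-seq table. One group of 3 libraries came from cells with a scrambled hairpin and the other group of 3 from cells with the ABL1 hairpin. Both groups were grown in DMEM and sampled 1 week after selection with puromycin. The hairpin sequence, the number of clones and the origin of the replicates from separate cultures are points not given in the sources used here. P-values below therefore describe the spread among the 6 libraries, part or all of which may be technical.

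Fibrillar collagens are the rod-like triple helices that give connective tissue its tensile strength. COL1A1 and COL1A2 encode the chains of type I collagen, in which COL1A1 usually contributes more chains than COL1A2, and COL3A1 encodes the chain of type III collagen. In the liver these collagens, the collagen-binding proteoglycan lumican (LUM), the receptor PDGFRA and the intermediate filament protein vimentin (VIM) are best known from stellate cells and fibroblasts, while hepatocytes hold little of them. Tumour lines of epithelial origin can express them too, vimentin above all.

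Values are normalized counts, which are whole reads put on the authors' scale between libraries. The libraries held 6651413 to 10487862 reads. Of the 10191 rows, 8600 had a mean of at least 10 normalized counts and were tested with limma, and 51.9% of these passed an adjusted p of 0.05. With so many calls in the whole table, a call by itself says little about a gene, and its size and its place among the other changes are given beside it. Across transcripts, log2 counts correlated at 0.984 to 0.988 within a group and at 0.940 to 0.951 between groups. The main transcript of the targeted gene, ABL1 NM_007313, went from 72.1 ± 1.09 to 11.1 ± 2.33 normalized counts (SD, n = 3 each), a log2 change of -2.62 (limma adjusted p = 4.11e-06). The scarcer ABL1 NM_005157 went from 8.74 ± 1.84 to 20.5 ± 3.75, a log2 change of 1.15 (adjusted p = 0.0180). Its scrambled mean of 8.74 was below 10, so it passed the filter through the knockdown group alone. The call of NM_005157 was lost without scrambled replicate 2 (adjusted p = 0.0508) or knockdown replicate 3 (adjusted p = 0.0738).

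Of the 6 genes, 5 were higher and 1 was lower in the knockdown libraries. LUM, PDGFRA, COL3A1, VIM and COL1A2 rose by 4.30, 3.58, 2.95, 2.16 and 1.53 times, while COL1A1 fell, with 2.03 times more in the scrambled libraries. Among all tested transcripts 24.5% were called higher and 27.4% lower. All 6 genes passed the filter, each with a mean above 10 in either group. For all 6 the groups did not overlap, as was the case for 58.9% of tested transcripts. The genes were chosen with earlier results of these data known, so these counts do not test them against all transcripts. The split of all calls depended on the scaling, with 47.2% of calls higher on the authors' scale and 63.8% with libraries scaled to equal totals, which moved the median log2 change up by 0.18. The direction and the call of each of the 6 genes were the same on both scales. In RNA from a bulk culture, fewer cells of a type and less RNA per cell cannot be told apart.

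**Figure D1:**
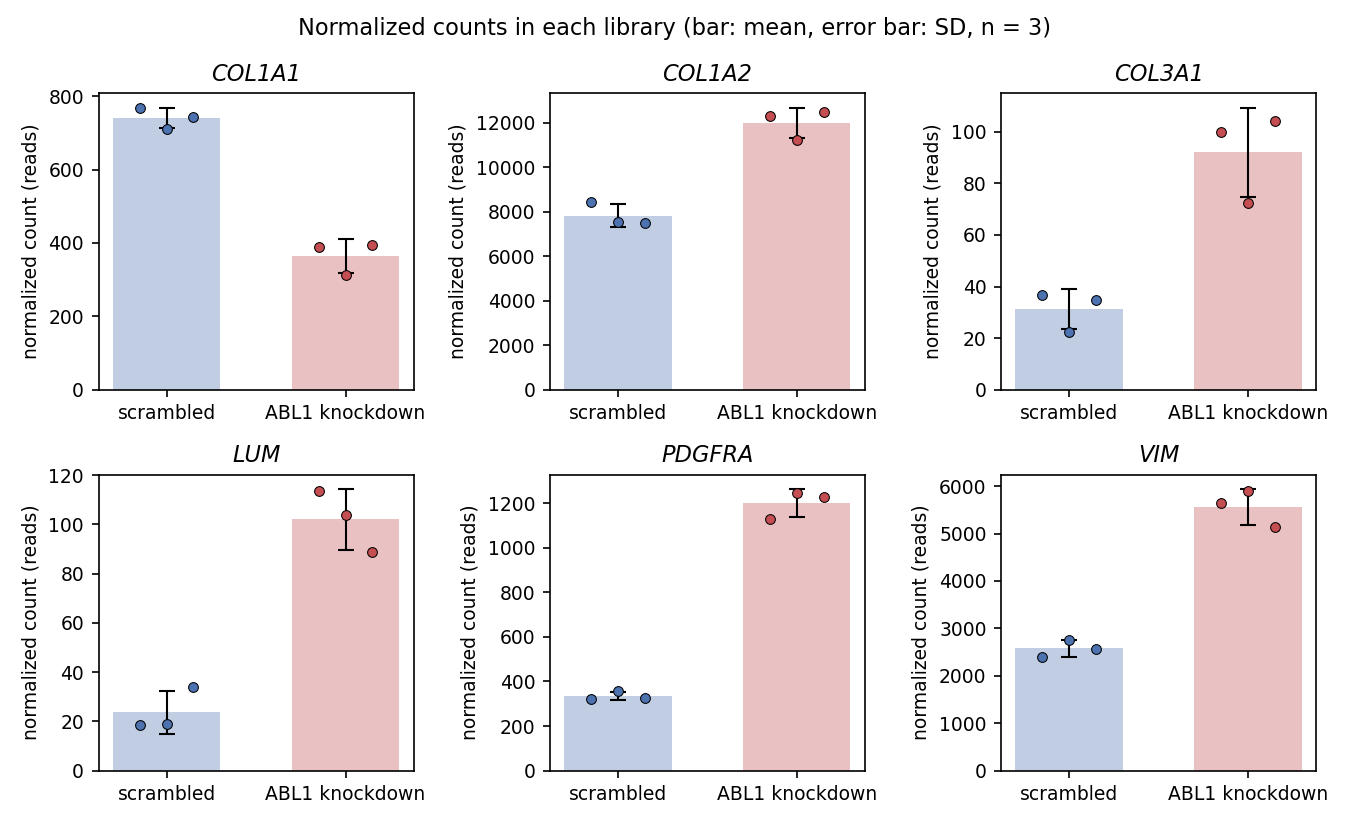
Normalized counts (reads on the authors' scale, linear axes from 0) of the 6 genes, with 1 point for each library, bars for the mean and error bars for the SD of 3 scrambled (blue) and 3 ABL1 knockdown (red) libraries. COL1A1 is the panel in which all knockdown libraries lie below all scrambled ones, and in the other 5 panels they lie above.

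COL1A1 (NM_000088), the major chain of type I collagen, lies on the minus strand of chromosome 17, where its GENCODE 29 model in GRCh38 runs from 50183289 to 50201632 with 51 exons. It had 768, 712 and 743 normalized counts with the scrambled hairpin and 388, 312 and 394 with the ABL1 hairpin. The lowest scrambled library was thus well above the highest knockdown library, and knockdown replicate 2 was the lowest of all. The means were 741 ± 28.1 and 365 ± 45.9 (SD, n = 3 each), a log2 change of -1.03 (SE 0.11, limma adjusted p = 5.31e-06). Among all tested transcripts 16.9% changed by more than COL1A1 in either direction, and 774 fell further.

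COL1A2 (NM_000089), the partner chain, lies on the plus strand of chromosome 7 (94394561 to 94431232, 52 exons) and was the most abundant of the 6 genes by count. Its normalized counts were 8422, 7540 and 7499 with the scrambled hairpin and 12277, 11232 and 12486 with the ABL1 hairpin. Every knockdown library was above every scrambled one, and 1.12% of tested transcripts had a higher mean count. The means of COL1A2 were 7820 ± 522 and 11998 ± 672, a log2 change of 0.62 (SE 0.08, adjusted p = 2.27e-05). This was the smallest change of the 6, exceeded by 36.3% of tested transcripts.

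On the authors' scale and on equal totals, COL1A1 fell and COL1A2 rose. Their ratio within a library needs no scaling between libraries and measures how unequally the chains changed, not the direction of either. There were 11.0, 10.6 and 10.1 reads of COL1A2 for each read of COL1A1 with the scrambled hairpin and 31.6, 36.0 and 31.7 with the ABL1 hairpin. The mean ratio was 10.6 ± 0.440 in the scrambled and 33.1 ± 2.51 in the knockdown group (SD, n = 3 each), 3.14 times higher with no overlap. On the log2 scale the ratio of COL1A1 to COL1A2 was -3.40 ± 0.06 and -5.05 ± 0.11, a difference of -1.65 (exact two-sided permutation test over libraries, p = 0.1, the smallest that 3 against 3 allows). Per kilobase of transcript the ratio was 13.1 ± 0.547 and 41.2 ± 3.13 transcripts of COL1A2 to 1 of COL1A1. The RefSeq reference lists 4 transcripts of COL1A1, predicted ones included, and 1 of COL1A2. How reads shared by several transcripts were counted is a step not given in the sources used here, and its part in the level of this ratio was not tested.

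COL3A1 (NM_000090), the chain of type III collagen, which often forms mixed fibrils with type I, lies on the plus strand of chromosome 2 (188974320 to 189012746, 51 exons). It was scarce, with 44, 20 and 37 reads with the scrambled hairpin and 102, 64 and 101 with the ABL1 hairpin. In normalized counts COL3A1 had 36.7, 22.4 and 34.7 against 99.8, 72.3 and 104. Replicate 2 was the lowest library in both groups, and the lowest knockdown library still held more than the highest scrambled one. The means were 31.3 ± 7.73 and 92.1 ± 17.3, a log2 change of 1.54 (SE 0.24, adjusted p = 0.000201). The pooled ratio of COL3A1 reads was 2.90 (exact 95% interval 2.30 to 3.69, for counting error only).

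LUM (NM_002345), which encodes lumican, a small leucine-rich proteoglycan that binds collagen fibrils and limits their width, lies on the minus strand of chromosome 12 (91102629 to 91111831, 3 exons). It had 22, 17 and 36 reads with the scrambled hairpin and 116, 92 and 86 with the ABL1 hairpin. Its normalized counts were 18.3, 19.1 and 33.8 against 113, 104 and 88.7, so that scrambled replicate 3 stood above its group but far below the knockdown libraries. The means of LUM were 23.7 ± 8.71 and 102 ± 12.5, a log2 change of 2.11 (SE 0.26, adjusted p = 2.31e-05), the largest of the 6. The pooled read ratio was 4.30 (exact 95% interval 3.33 to 5.62). Only 2.27% of tested transcripts changed by more than LUM, and 85 rose further.

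PDGFRA (NM_006206), the alpha receptor for platelet-derived growth factors and a receptor tyrosine kinase of mesenchymal cells, lies on the plus strand of chromosome 4 (54229097 to 54298247, 23 exons). It had 323, 355 and 327 normalized counts with the scrambled hairpin and 1127, 1246 and 1229 with the ABL1 hairpin. Libraries of PDGFRA lay close together within a group, with a coefficient of variation of 5.24% and 5.35%. The means were 335 ± 17.6 and 1200 ± 64.2, a log2 change of 1.84 (SE 0.09, adjusted p = 1.12e-08), the smallest adjusted p of the 6. Among tested transcripts 138 rose further.

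VIM (NM_003380) encodes vimentin, the main intermediate filament protein of mesenchymal cells, and lies on the plus strand of chromosome 10 (17228259 to 17237592, 10 exons). It had 2404, 2759 and 2571 normalized counts with the scrambled hairpin and 5637, 5903 and 5142 with the ABL1 hairpin. Each knockdown library was higher than each scrambled one by a wide margin. The means of VIM were 2578 ± 178 and 5561 ± 386.5, a log2 change of 1.11 (SE 0.08, adjusted p = 2.48e-07). The antisense gene VIM-AS1 overlaps the start of VIM, and without a stated strand setting their reads cannot be told apart. The annotation also holds a processed pseudogene, VIM2P, which could share reads with VIM.

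**Figure D2:**
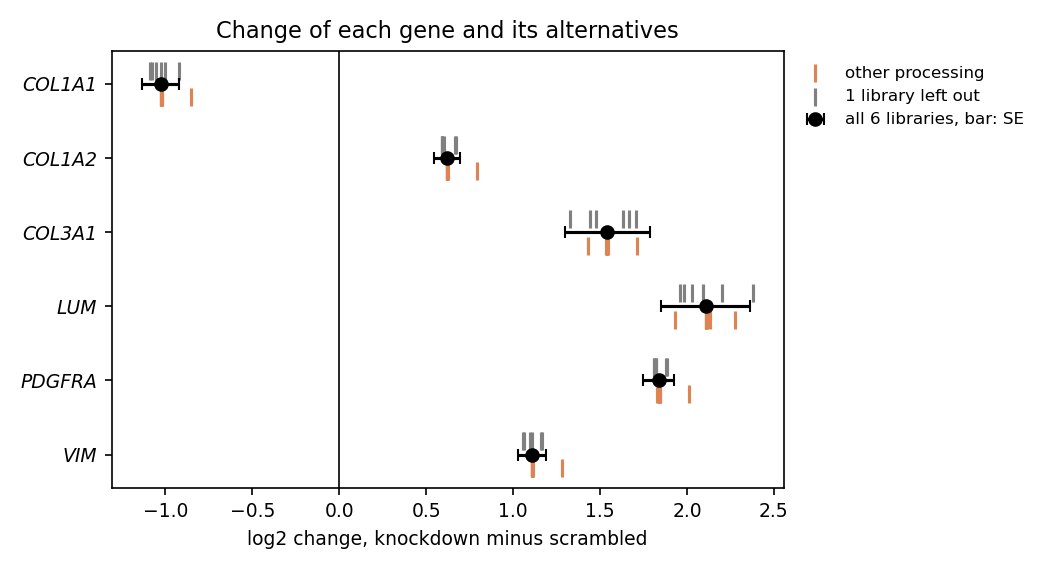
Log2 change of each gene, knockdown minus scrambled (x axis), as a point with its SE from the fit on all 6 libraries, with orange ticks for other processing and grey ticks for fits with 1 library left out. The ticks of each gene stay on the side of 0 of its point, with COL1A1 alone to the left.

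Of the 6 genes, PDGFRA and VIM had entries in the RefSeq promoter table used here (GRCh38.p14), and these are shown because both genes rose by more than 2-fold in the knockdown libraries. The lines that follow give the 250 bases before a listed transcript start, 5′ to 3′ on the plus strand, with capitals for the CCAAT and GC box letters named after them. The VIM window is chr10:17227991-17228240, and the PDGFRA window, before the second of its 2 listed starts, is chr4:54233710-54233959 and lies in an intron of the gene model above.
VIM: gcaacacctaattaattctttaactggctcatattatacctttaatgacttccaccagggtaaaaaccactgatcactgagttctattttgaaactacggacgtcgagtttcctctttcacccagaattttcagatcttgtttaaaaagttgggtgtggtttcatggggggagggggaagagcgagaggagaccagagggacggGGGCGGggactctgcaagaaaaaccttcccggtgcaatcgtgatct
PDGFRA: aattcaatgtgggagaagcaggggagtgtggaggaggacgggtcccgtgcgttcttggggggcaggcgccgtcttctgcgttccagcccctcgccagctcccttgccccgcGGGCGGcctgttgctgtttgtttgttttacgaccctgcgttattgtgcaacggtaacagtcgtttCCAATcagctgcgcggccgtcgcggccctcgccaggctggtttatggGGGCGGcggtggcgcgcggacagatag

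Short motifs were searched on both strands, namely CCAAT for the CCAAT box, GGGCGG for the GC box that SP1-family factors bind and TATAAA for the TATA box. No match overlapped another in the windows printed. The VIM window held 1 GGGCGG, beginning 46 bases before the start, and no CCAAT. The PDGFRA window held 2 GGGCGG, the first beginning 139 bases before the start, and 1 CCAAT beginning 74 bases before it. The window before the other PDGFRA start, which at 54229293 is nearer the start of the gene model above, held none of the motifs. TATAAA was in none of the windows of either gene. Which starts gave the PDGFRA and VIM reads was not tested, and for VIM only the window printed was searched. Of 35116 windows of 250 bases in the table, 42.6% held the GC box, 32% the CCAAT box and 10.7% the TATA box, so that these matches are common and describe the letters only.

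Set against transcript length, the genes spanned a wide range of levels, and their order differed between the groups. In the scrambled libraries COL1A2 was highest with 1445 ± 96.4 normalized counts per kilobase, followed by VIM with 1208 ± 83.2, COL1A1 with 110 ± 4.18, PDGFRA with 51.0 ± 2.67, LUM with 7.89 ± 2.90 and COL3A1 with 5.64 ± 1.39. Neighbours in that order did not overlap between libraries except LUM and COL3A1. In the knockdown libraries the order was VIM with 2605 ± 181 per kilobase, COL1A2 with 2217 ± 124, PDGFRA with 183 ± 9.77, COL1A1 with 54.2 ± 6.82, LUM with 33.9 ± 4.15 and COL3A1 with 16.6 ± 3.11, and no neighbours overlapped. VIM and COL1A2 had thus changed places, as had PDGFRA and COL1A1. The models of COL1A1 and PDGFRA are the longest protein-coding ones of their symbol, since no model was matched to their RefSeq identifiers.

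**Figure D3:**
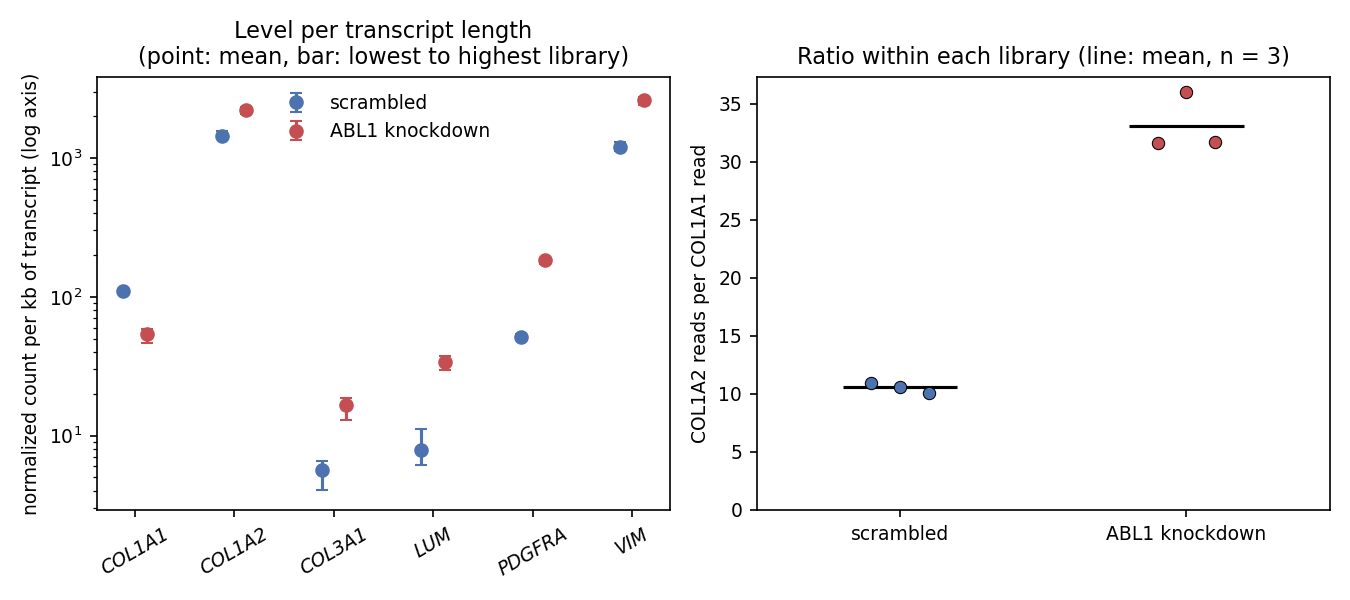
Left, normalized count per kilobase of transcript on a log axis for the 6 genes, with points for the group mean and bars from the lowest to the highest of 3 libraries (blue scrambled, red ABL1 knockdown). Right, reads of COL1A2 for each read of COL1A1 in every library on a linear axis from 0, with lines at the means of 10.6 and 33.1.

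The spread between libraries was set against the variance that counting gives. This measure grows with the read count, so it does not rank the genes by relative spread. For COL1A2 the spread between scrambled libraries was 38.8 times, and between knockdown libraries 34.4 times, that variance. For VIM these values were 12.6 and 25.2. For the scarce COL3A1 they were 1.82 and 2.94 and for LUM 3.41 and 1.51. The spread of COL1A1 was 1.09 and 5.26 times and that of PDGFRA 0.894 and 3.38 times the counting variance.

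Of 8 other fibrillar collagens listed, 5 had a row and were tested. Listed genes without a row, here and in the lists below, could not be assessed. Of the 5 tested 2 rose and COL27A1 fell, which is 60% called against 51.9% of all transcripts. COL5A2, a chain of type V collagen, which sits inside type I fibrils, rose from 9839 ± 961 normalized counts to 11833 ± 509, a log2 change of 0.27 (adjusted p = 0.0135). That call was lost without scrambled replicate 3 (0.22, adjusted p = 0.0741) or knockdown replicate 1 (0.23, adjusted p = 0.0613). COL2A1, the cartilage collagen, rose from 46.6 ± 23.7 to 96.3 ± 30.3 with overlapping groups (log2 change 1.09, adjusted p = 0.0152). Its call was lost without scrambled replicate 1, knockdown replicate 2 or knockdown replicate 3 (adjusted p = 0.0536 to 0.0603). COL27A1 fell by 0.30 on the log2 scale (adjusted p = 0.00233) but not with libraries scaled to equal totals, where its log2 change was -0.13 (adjusted p = 0.121). The median log2 change of the 5 was 0.27, against 0.0018 for all tested transcripts.

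Non-fibrillar collagens form networks, anchor tissues or coat fibrils. Of 30 listed, 13 had a row and 11 were tested. Of these 5 fell and 2 rose, with a median log2 change of -0.55. The 7 called made up 63.6% of those tested, against 51.9% of all transcripts, of which 27.4% were lower and 24.5% higher. With equal totals 5 fell and 3 rose, where 19.6% of all transcripts fell and 34.6% rose. COL9A3 had the largest fall, from 511 ± 96.7 to 125 ± 11.6 counts (log2 change -2.01, adjusted p = 3.22e-07). COL14A1 and COL9A3 encode chains of collagens attached to fibril surfaces, and COL14A1 fell from 814 ± 64.4 to 292 ± 27.1. COL7A1, of the fibrils that anchor epithelia, fell by 1.19 on the log2 scale, COL22A1 by 1.05 and COL6A1, a chain of beaded filaments, by 0.55. COL12A1, another fibril-surface collagen, rose from 11.2 ± 3.60 to 39.0 ± 9.32 (log2 change 1.73, adjusted p = 0.00085), and COL28A1 rose by 0.67.

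Enzymes and helpers of collagen synthesis modify, fold, trim and cross-link the chains. Of 34 listed, 20 had a row and were tested. Of these 8 rose and 6 fell, with a median log2 change of 0.15, where 24.5% of all transcripts rose and 27.4% fell. On equal totals 11 rose and 4 fell, where 34.6% of all transcripts rose and 19.6% fell. Lysyl oxidases, which cross-link collagen, differed in direction among themselves. LOXL1 had 24.2, 26.9 and 24.4 normalized counts with the scrambled hairpin and 202, 181 and 240 with the ABL1 hairpin, the largest rise of the list (log2 change 2.99, SE 0.18, adjusted p = 7.54e-08). LOXL4 rose from 400 ± 31.0 to 984 ± 101, while LOXL2 fell from 387 ± 39.8 to 122 ± 5.62, and LOX stood at 1271 ± 205 and 1270 ± 123 (adjusted p = 0.966). The enhancers of procollagen processing were likewise split, with PCOLCE2 higher (log2 change 0.84) and PCOLCE lower (-0.41). Among the factors that act inside the cell, P4HB, the shared subunit of prolyl 4-hydroxylase, fell by 0.73 on the log2 scale from 39892 ± 1497 counts, and P3H3, of the prolyl 3-hydroxylase family, rose by 0.72. CREB3L1, a transcription factor known to bind collagen genes, fell by 1.20 on the log2 scale (adjusted p = 9.39e-06).

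The small leucine-rich proteoglycans tested beside LUM did not rise in limma's test. Of 12 listed, 4 had a row and were tested, with a median log2 change of -1.12. Of these 3 fell, where 27.4% of all transcripts were called lower. With equal totals 2 fell, where 19.6% of all transcripts did. The number that rose was 0, also at an unadjusted p of 0.05 and with voom (0 in each). Biglycan (BGN), a proteoglycan of connective tissue matrix, had 969, 1009 and 1041 normalized counts with the scrambled hairpin and 372, 300 and 353 with the ABL1 hairpin (log2 change -1.56, SE 0.10, adjusted p = 9.65e-08). NYX fell by 1.70 on the log2 scale, from 23.2 ± 8.69 to 6.20 ± 1.46 counts, so it passed the filter through the scrambled group alone. CHAD fell by 0.67 (adjusted p = 0.0161), a call lost with equal totals (adjusted p = 0.0603) and without scrambled replicate 2 (adjusted p = 0.0633). FMOD stood at 113 ± 4.19 and 122 ± 17.1 (adjusted p = 0.620).

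Around PDGFRA, 3 of 12 listed ligands and related receptors had a row and were tested, with a median log2 change of 0.64. Of these 2 rose, where 24.5% of all transcripts did. PDGFRL, a receptor-like protein, rose from 385 ± 32.2 to 598 ± 21.1 counts, a log2 change of 0.64 (adjusted p = 0.000134). The ligand PDGFB rose with overlapping groups, from 17.5, 5.60 and 4.69 to 14.7, 30.5 and 22.7 (log2 change 1.36, adjusted p = 0.0325). Its scrambled mean was 9.27, so it passed the filter through the knockdown group alone. The call of PDGFB was lost without scrambled replicate 2 or 3 or knockdown replicate 2 or 3 (adjusted p = 0.0716 to 0.120). PDGFRB, the sister receptor of PDGFRA, stood at 313 ± 33.6 and 288 ± 23.2 (log2 change -0.12, adjusted p = 0.432). None of the 3 fell in limma's test, at an unadjusted p of 0.05 or with voom (0 in each).

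Among intermediate filament genes and linkers beside VIM, 18 were listed, 10 had a row and 8 were tested. Of these 1 rose and 4 fell, with a median log2 change of -0.20. The share called was 62.5%, against 51.9% of all transcripts. NES, which encodes nestin, a partner of vimentin in mixed filaments, had 6826, 6235 and 5414 normalized counts with the scrambled hairpin and 12207, 10874 and 12510 with the ABL1 hairpin (log2 change 0.95, SE 0.09, adjusted p = 2.79e-06). The epithelial keratin KRT19 fell from 3934 ± 467 to 2205 ± 67.7 and the lamin LMNB2 from 5167 ± 476 to 2574 ± 191. LMNB1 fell by 0.53 with overlapping groups and SYNM, which encodes synemin, by 0.61 on the log2 scale. With libraries scaled to equal totals 2 of the list fell, where 19.6% of all transcripts did. LMNB1 (adjusted p = 0.0805) and SYNM (adjusted p = 0.0542) lost their calls on that scale. LMNB1 also lost its call without scrambled replicate 1 or 3 or knockdown replicate 1 (adjusted p = 0.0544 to 0.0737).

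Of 29 factors and markers of epithelial-mesenchymal transition, 11 had a row and 10 were tested. CDH1, FN1, ZEB1 and ZEB2 were among those without a row. Of the 10 tested 5 fell and 1 rose, with a median log2 change of -0.27. Those that fell made up 5 of 10, against 27.4% of all tested transcripts. OVOL1, a transcription factor of epithelia, went from 85.6 ± 3.96 to 18.2 ± 5.66 counts, a log2 change of -2.21, ESRP2, an epithelial splicing factor, from 1098 ± 82.2 to 399 ± 71.9 and the desmosome gene DSP from 645 ± 49.2 to 311 ± 11.4. The tight-junction gene CLDN1 fell by 0.31 on the log2 scale. The epithelial genes EPCAM (log2 change -0.22, adjusted p = 0.0833) and CRB3 (-0.19, adjusted p = 0.741) did not pass. SNAI1, a transcription factor that represses epithelial genes, also fell, from 454 ± 29.6 to 345 ± 43.9 (log2 change -0.40, adjusted p = 0.0101). With libraries scaled to equal totals 3 of the list fell, where 19.6% of all transcripts did. CLDN1 (adjusted p = 0.0946) and SNAI1 (adjusted p = 0.0958) lost their calls on that scale. The gene that rose was ITGA5, a subunit of the fibronectin receptor (log2 change 0.72). The mesenchymal cadherin CDH2 stood at 72.8 ± 35.9 and 70.8 ± 15.8 (adjusted p = 0.869).

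TGF-beta is a main inducer of collagen genes. Of 26 listed genes, 15 had a row and were tested. Of these 7 fell and 3 rose, with a median log2 change of -0.41, or 6 fell and 6 rose with equal totals. On the authors' scale 66.7% of the 15 were called, against 51.9% of all transcripts. With equal totals 34.6% of all tested transcripts were called higher and 19.6% lower. The ligand TGFB1 fell from 1500 ± 96.8 to 871 ± 78.2 normalized counts, while TGFB3 rose from 38.2 ± 5.76 to 69.5 ± 14.9. The target CTGF fell from 2824 ± 98.3 to 405 ± 41.3, TGFBI from 6226 ± 405 to 3112 ± 138 and SKI, which represses SMAD activity, from 2341 ± 271 to 1234 ± 139. SMAD4, the shared signal carrier, rose by 0.29 and the pseudoreceptor BAMBI by 0.35.

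**Figure D4:**
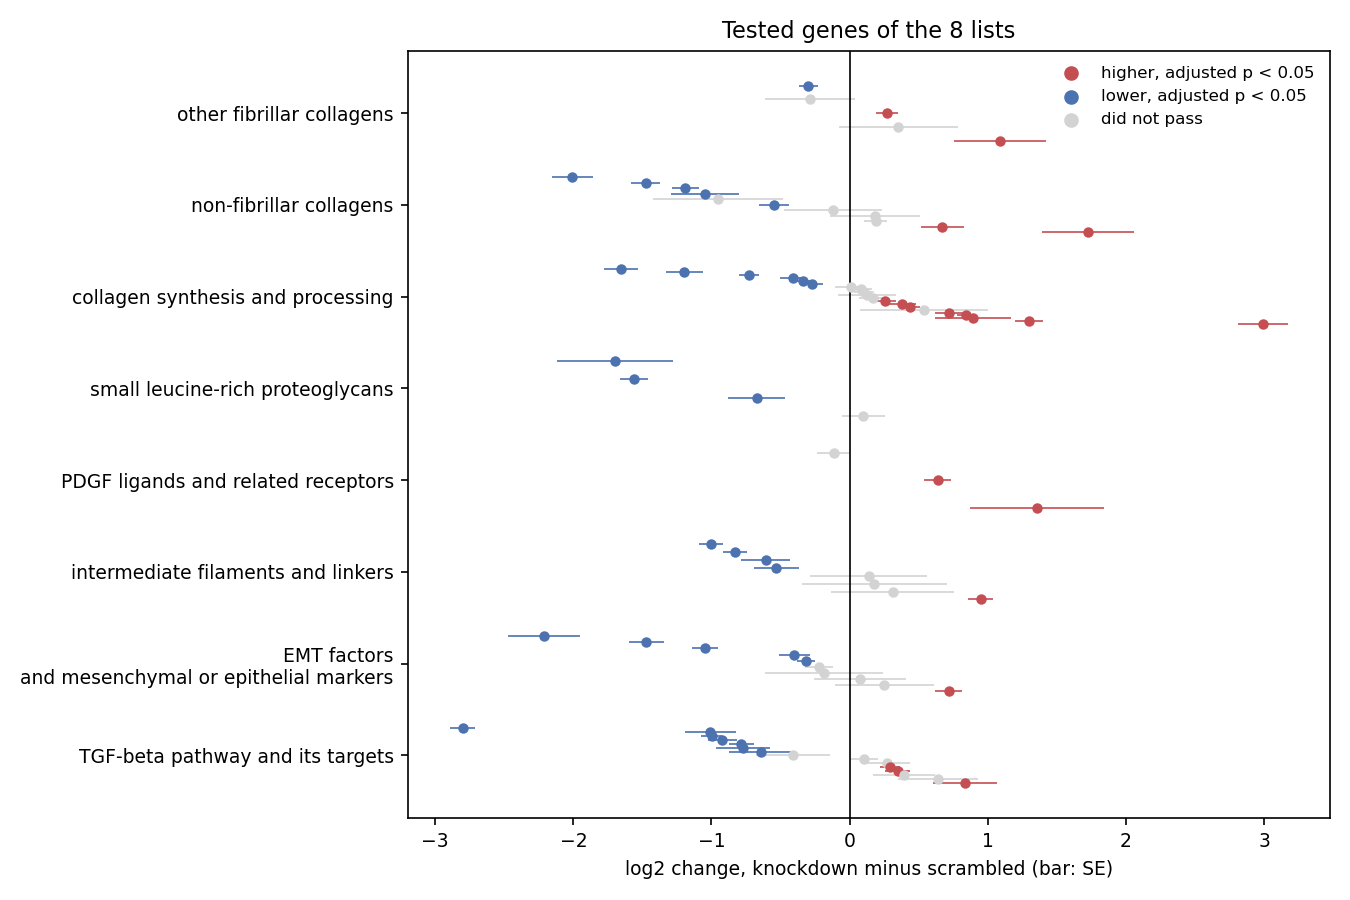
Log2 change, knockdown minus scrambled (x axis), of every tested gene in 8 lists related to the 6 genes, with bars for the SE and colour for genes past an adjusted p of 0.05 (red higher, blue lower, grey not past). Most lists hold both colours, and LOXL1 at 2.99 and CTGF at -2.80 are the outermost points.

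Transcripts whose pattern over the 6 libraries was most like that of a gene were taken from 4300 transcripts at or above the median count. With 6 libraries in 2 well separated groups such correlations are high for many transcripts and carry no test. ESRP2 (Pearson r = 0.9993), HES1 (0.9992) and SLC7A5 (0.9988) were closest to COL1A1, and LSG1 (0.9988), OAS3 (0.9987) and the laminin gene LAMC1 (0.9982) to COL1A2. SCGN (0.9994), FLRT2 (0.9988) and the matrix gene FREM1 (0.9986) were closest to PDGFRA, and TMX4 (0.9987), MAPRE1 (0.9986) and ANXA5 (0.9985) to VIM. For the scarce genes these were ZBTB47 (0.9987), ADO (0.9963) and C16orf86 (0.9955) for COL3A1 and SOS2 (0.9940), LNP1 (0.9922) and SEMA3D (0.9917) for LUM. An r above 0.99 was reached by 114 transcripts for PDGFRA, 91 for VIM, 90 for COL1A1, 50 for COL1A2, 12 for COL3A1 and 7 for LUM.

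Markers of cell types were summed in each library to place these values. Normalized counts of all rows summed to 8.57e+06 to 8.74e+06 in the scrambled and 7.52e+06 to 7.78e+06 in the knockdown libraries. The marker sums and calls below are on the same authors' scale, and the sums were not put on equal totals. Hepatocyte markers (11 of 14 with a row) summed to 554537 to 625201 normalized counts in the scrambled and 464978 to 513488 in the knockdown libraries, led by AFP, and of 10 tested 6 fell and 1 rose. Beside these and the marker calls below, 27.4% of all tested transcripts were called lower and 24.5% higher. The fibroblast and stellate markers beside the 6 genes had a row for 2 of 12, PDGFRB and BGN, which summed to 1308 to 1333 in the scrambled and 593 to 660 in the knockdown libraries, with BGN lower and PDGFRB not past the test. The other 10, ACTA2, DCN and THY1 among them, were not analysed here. Endothelial markers (4 of 8) summed to 176 to 204 and 125 to 147, with 3 lower and 1 higher. Immune markers (3 of 10) summed to 5714 to 6331 and 6544 to 7489, nearly all from LYZ, with 2 lower and 1 higher. Biliary markers (6 of 8) summed to 8570 to 9789 and 5816 to 6256, with 4 lower and 1 higher. The biliary marker CFTR (scrambled mean 7.16) and the immune marker LAPTM5 (knockdown mean 4.12) passed the filter through 1 group alone. No marker with a row was at 0 in all libraries, but the row filter was not given, so this says little about the cell types present. The part of the marker shifts in the values of the 6 genes was not tested.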

How the data were processed

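RNA-seq libraries of total RNA from 6 samples of Huh7 cells were compared, 3 for each hairpin, grouped by their titles. The authors worked with HISAT2 2.0.4, HTSeq 0.6.1 and build hg38, per the submitters' processing notes, which state neither roles nor order. Annotation, strand setting and row filter were not given in the sources used here. In these files the deposited signal is, from its values, the square root of a step per library times whole reads plus 0.375. Squaring and dividing by the step gave whole reads within 0.05 for 100% of rows in every library. Normalized counts are these reads times the library's step over the geometric mean of the steps, which keeps the authors' scaling.

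Log2(normalized count + 1) was fitted for 8600 transcripts with limma 3.58.1 (mean-variance trend) in R 4.3.3. P-values are two-sided and Benjamini-Hochberg adjusted across these transcripts. Such log2 changes understate the change of scarce transcripts. No count test was the main one, since the deposited values are normalized. Chi-square per degree of freedom between libraries of a group was 5.50 to 9.70, so none was a copy of another. The fit was checked on simulated data. Rows were matched to RefSeq by identifier (97.83%), and models came from GENCODE 29 (GRCh38).

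The 6 genes and the gene lists were chosen with earlier results of these data known. Each gene entered a list with its most abundant tested row. Named from the lists were all genes past the threshold in a direction where 5 or fewer passed, otherwise the 4 with the smallest p, and, for each of the 6 genes, the 3 transcripts with the highest correlation. LOX, FMOD, PDGFRB, CDH2, EPCAM and CRB3 were named after their values were seen, as were the markers. Alternatives in pseudocount, filter, scaling, variance model, scale of the values, summing per gene, a replicate block and leaving out each library were run.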

Additional observations from a re-analysis of the deposited data

How the results depend on the processing

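Under 14 alternatives each of the 6 genes kept its direction and its call. Over them, leaving aside the fit of the deposited values as they stand, the log2 change was -1.09 to -0.85 for COL1A1, 0.59 to 0.79 for COL1A2, 1.33 to 1.71 for COL3A1, 1.93 to 2.38 for LUM, 1.81 to 2.01 for PDGFRA and 1.06 to 1.28 for VIM, and the highest adjusted p of any was 0.00115. The difference between groups in the log2 ratio of COL1A1 to COL1A2 was -1.68 to -1.59 with 1 library left out. Deviations from the group means had r = 0.0471, 0.0765 and 0.0768 for same-numbered libraries, and -0.1525 to 0.0886 for differently numbered ones. The number was not taken as a pairing, a point that these values do not settle. With a replicate block 4821 transcripts passed against 4460, the calls of the 6 genes stood, and the ratio kept its difference of -1.65 (exact sign-flip test, p = 0.25, the smallest that 3 pairs allow). With equal totals 0 other fibrillar collagens fell in limma's test (1 on the authors' scale, and 1 with voom), 2 intermediate filament genes fell, 3 transition genes fell and 6 TGF-beta pathway genes rose. That scaling lifts the median change by 0.18, and on it 34.6% of all tested transcripts were called higher and 19.6% lower. With 1 library left out, 1 to 2 other fibrillar collagens and 1 to 2 PDGF-related genes rose. Reads summed over both ABL1 rows gave a log2 change of -1.33, opposite to that of NM_005157 alone, since the sum holds NM_007313, the more abundant row in the scrambled but not in the knockdown libraries. LUM and COL3A1 rested on 75 and 101 scrambled reads, which limits their precision.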
